A study of Mus musculus with 2 samples.

Results

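Pre-hemogenic endothelium (pre-HE) is the endothelium of the dorsal aorta that stands just before hemogenic endothelium, the cells that leave the vessel wall as blood. Its members here were the cells whose deposited class is pre-HE of the arterial branch. The authors had assigned that class by placing each cell beside reference cells of the endothelial to hematopoietic transition (EHT) from an earlier atlas. They numbered 228 of 8405 cells, 92 of 3954 in the SP3KO library and 136 of 4451 in the WT library. Both libraries came from embryos at embryonic day 10.5, bred from Sp3+/- females and Sp3+/- males on the C57Bl6/J x B6129SF1/J background. The SP3KO embryos carried the germline allele Sp3tm1Sus on both chromosomes and lacked the transcription factor SP3 in every tissue, whereas the WT embryos carried no such allele. Dorsal aorta regions of 1 genotype were pooled, and neither the number nor the sex of the embryos was stated. Viable cells were sorted as Ter119- and CD41 low or negative, with CD31, CD144 and ESAM all required, so that blood cells with high CD41 were left out by the gate.

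Blood stem cells arise from endothelium of the large arteries. Along the EHT, arterial endothelium (AE) passes through conflux AE, where its Wnt-low and Wnt-high forms converge, and through pre-HE to hemogenic endothelium (HE), which turns on the transcription factor RUNX1 and gives rise to intra-aortic cluster cells (IAC). Pre-HE is thus still endothelium, with an arterial identity set by VEGF and Notch signalling, and it precedes the step that requires RUNX1. SP3 binds GC boxes, which are common in promoters, and it is made in nearly all cells.

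Each genotype was captured once. Genotype, pool and library therefore cannot be told apart, no test between SP3KO and WT was possible, and no difference between them given here has a replicate check. Values are raw counts of unique molecular identifiers (UMIs, 1 for each captured transcript), summed over the cells of a class and given per 1000000 UMIs of that sum (CPM). Values in parentheses after a level or ratio are exact 95% intervals and cover counting error only. Pre-HE cells held 891135 UMIs in the SP3KO library, with a median of 9163 and a range of 1949 to 27861 per cell. They held 1537070 UMIs in the WT library, with a median of 9257.5 and a range of 1849 to 40796. The median mitochondrial share was 7.31% of UMIs in SP3KO pre-HE and 7.13% in WT pre-HE, against 4.94% over all SP3KO cells and 5.39% over all WT cells. The libraries shared 5 cell barcodes, and 1 of them belonged to a pre-HE cell.

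The sort required endothelial antigens, and the markers of pre-HE set its cells apart from the other classes to different degrees. Cdh5, the cadherin of endothelial junctions, stood at 1534 CPM in SP3KO pre-HE and 1483 CPM in WT pre-HE, against 509 CPM in SP3KO and 582 CPM in WT HE. Cdh5 encodes CD144, by which all cells were sorted, so its presence is no separate check that the cells were endothelial. Ptprc, the leukocyte antigen CD45, was at 0 UMIs in SP3KO pre-HE and 0 UMIs in WT pre-HE, which allows levels of up to 3.37 CPM in SP3KO and 1.95 CPM in WT. Hey2 (ENSMUSG00000019789, chr10:30832359-30842783), a transcriptional repressor that acts below Notch in arteries, stood at 136 CPM in SP3KO pre-HE and 124 CPM in WT pre-HE. It stood at 18.2 CPM in SP3KO and 20.2 CPM in WT conflux AE and at 11.2 CPM in SP3KO and 14.2 CPM in WT HE, so that pre-HE lay above both neighbours in both libraries. Stmn2 (ENSMUSG00000027500, chr3:8509527-8561604), a stathmin that binds tubulin, was also highest in pre-HE, at 523 CPM in SP3KO pre-HE and 839.9 CPM in WT pre-HE, with 467 CPM in SP3KO and 609.9 CPM in WT conflux AE close behind. Cd44 (ENSMUSG00000005087, chr2:102811141-102901669), a hyaluronan receptor that marks entry into the EHT, stood at 65.1 CPM in SP3KO pre-HE and 82.6 CPM in WT pre-HE. It stood lower, at 20.2 CPM in SP3KO and 34.7 CPM in WT conflux AE, before pre-HE and higher, at 104 CPM in SP3KO and 103 CPM in WT HE, after it. Acta2 (ENSMUSG00000035783, chr19:34240336-34255585), smooth muscle actin, stood at 35.9 CPM in SP3KO pre-HE and 232 CPM in WT pre-HE. It stood at 4.72 CPM in SP3KO and 5.16 CPM in WT conflux AE and at 337 CPM in SP3KO and 247 CPM in WT HE. SP3KO pre-HE thus lay below SP3KO HE (log2 ratio -3.23, -3.80 to -2.70), while WT pre-HE was within counting error of WT HE (-0.09, -0.32 to 0.14). Hey2 and Stmn2 were thus highest in pre-HE in both libraries, whereas Cd44 and Acta2 were shared with HE. The margin of Stmn2 over conflux AE was narrow. With each cell thinned at random to 5000 UMIs, Stmn2 was found in 56.8% of SP3KO pre-HE and 55.7% of SP3KO conflux AE cells. In WT these shares were 63.7% and 60.7%. Since the class was assigned from expression, these levels describe it and do not check the label.

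**Figure D1:**
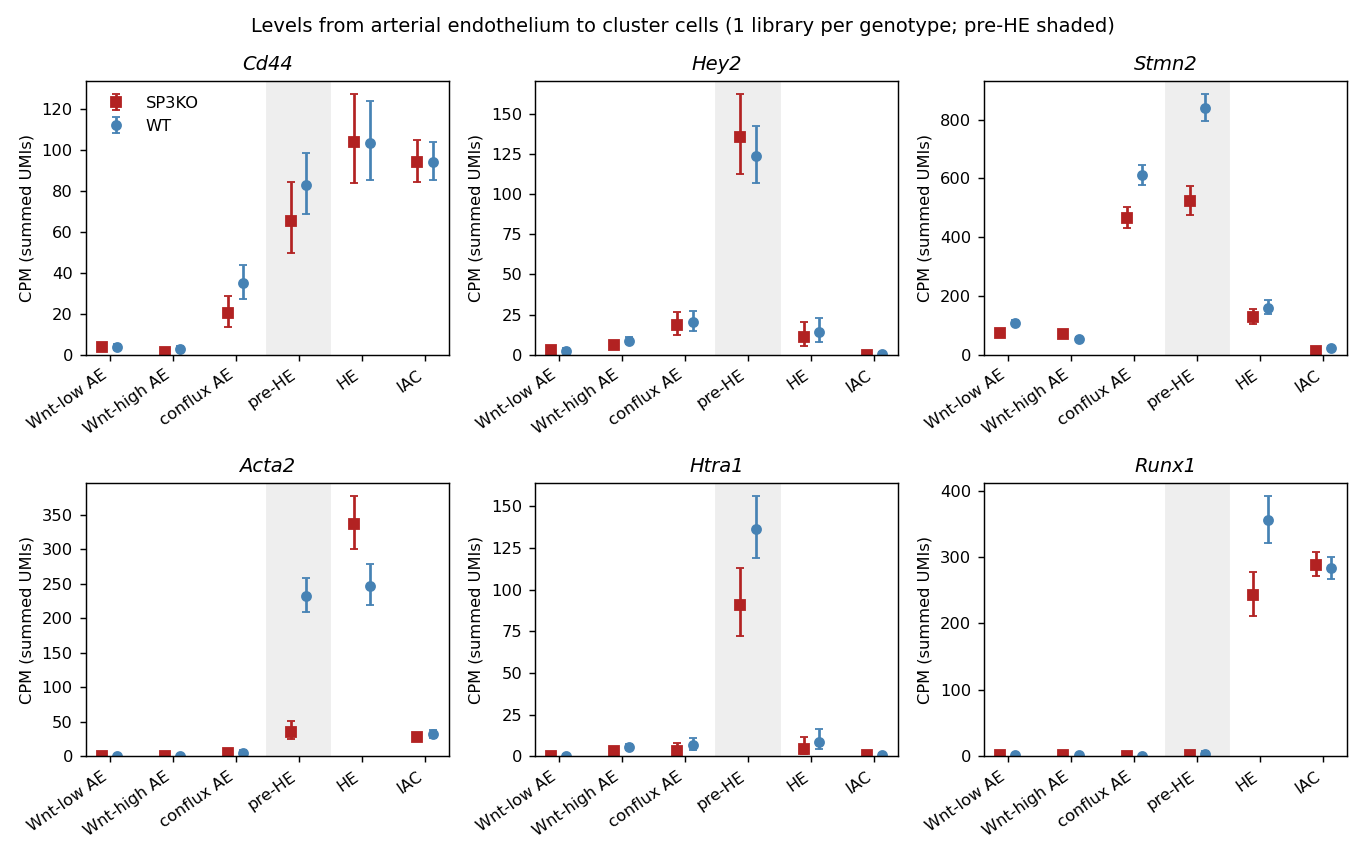
Summed CPM (vertical axis, from 0) of 6 genes in the classes from AE to IAC, with SP3KO as squares and WT as circles, and bars as 95% counting intervals of 1 library each. Hey2 and Htra1 peak in pre-HE (shaded) in both libraries, Runx1 stays at 2.24 CPM in SP3KO pre-HE and 3.90 CPM in WT pre-HE, and Acta2 lies at 35.9 CPM in SP3KO pre-HE and 232 CPM in WT pre-HE.

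Next, genes were sought whose level in pre-HE exceeded that in each of the 8 other classes at least 2-fold in both libraries. Of 5952 genes with at least 50 pre-HE UMIs over both libraries, 56 did so (0.941%). Since the classes rest on expression, these genes describe pre-HE and test nothing. The class next below pre-HE was conflux AE in both libraries for 15 of them and HE in both libraries for 15. The widest margin belonged to Htra1 (ENSMUSG00000006205, chr7:130936203-130985658), a secreted serine protease that acts on matrix proteins, at 90.9 CPM in SP3KO pre-HE and 137 CPM in WT pre-HE, against 4.47 CPM in SP3KO and 8.89 CPM in WT HE. Among the other 11 of the 12 genes with the widest margins, P4ha3, a subunit of collagen prolyl hydroxylase, stood at 31.4 CPM in SP3KO pre-HE and 30.6 CPM in WT pre-HE, with no more than 2 UMIs in conflux AE or HE of either library. Fbln2, the matrix protein fibulin 2, stood at 16.8 CPM in SP3KO pre-HE and 36.4 CPM in WT pre-HE, Adamts5, a protease of proteoglycans, at 16.8 CPM in SP3KO pre-HE and 28.0 CPM in WT pre-HE, and Bcam, a laminin receptor, at 19.1 CPM in SP3KO pre-HE and 22.1 CPM in WT pre-HE. Dhh, the hedgehog ligand made by arterial endothelium, stood at 32.5 CPM in SP3KO pre-HE and 59.2 CPM in WT pre-HE, against 6.07 CPM in SP3KO and 8.45 CPM in WT conflux AE. Adgrg6, an adhesion receptor coupled to G proteins, had 103 UMIs in SP3KO and 167 in WT pre-HE, against 0 UMIs in SP3KO and 7 in WT conflux AE. Cavin2, a coat protein of caveolae, stood at 307 CPM in SP3KO pre-HE and 267 CPM in WT pre-HE, against 65.4 CPM in SP3KO and 34.7 CPM in WT conflux AE. Prickle2, Nrk and Pdlim3 completed the set. Pdlim3, a protein of actin filament ends, rested on few cells, 15 in SP3KO and 11 in WT.

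**Figure D2:**
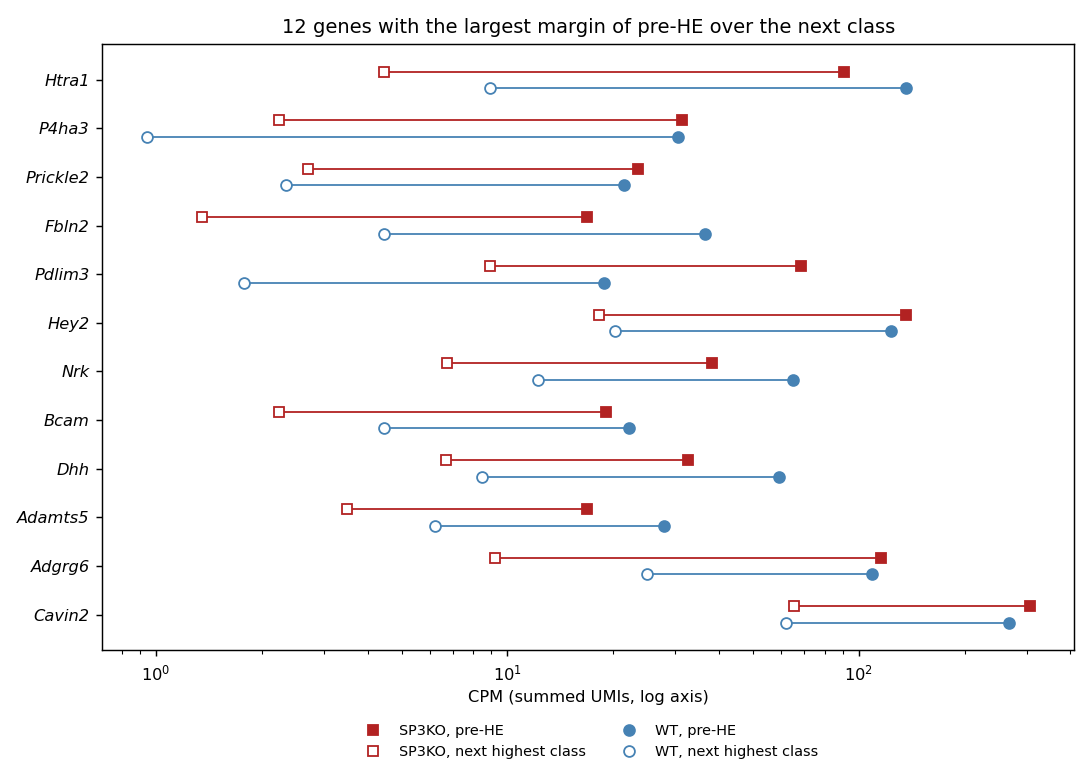
The 12 genes with the widest margin of pre-HE over the next highest class, with CPM on a log axis. Filled symbols are pre-HE, open symbols the next highest class of the same library, squares SP3KO and circles WT; for Htra1 the filled symbols lie at 90.9 CPM in SP3KO pre-HE and 137 CPM in WT pre-HE.

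The remaining peak genes, named here after their values were seen, included regulators of vessels. Edn1, the vasoconstrictor endothelin 1, stood at 392 CPM in SP3KO pre-HE and 467 CPM in WT pre-HE, against 116 CPM in SP3KO and 101 CPM in WT conflux AE. Tek, the angiopoietin receptor, lay above conflux AE by log2 ratios of 1.51 (1.19 to 1.83) in SP3KO and 1.95 (1.68 to 2.22) in WT. Sost, a secreted inhibitor of Wnt signalling, lay above it by 2.39 (1.82 to 2.99) in SP3KO and 1.93 (1.52 to 2.34) in WT, and Fbn1, fibrillin 1 of the microfibrils, stood at 267 CPM in SP3KO pre-HE and 245 CPM in WT pre-HE, against 30.3 CPM in SP3KO and 29.6 CPM in WT conflux AE. Of the gene lists, 4 of 23 measured arterial genes, 3 of 11 flow-responsive genes and 2 of 16 matrix genes were among the 56, against 0.941% of all genes measured. The lists were chosen with earlier results of these data known, and part of the arterial list entered the score that named the branch. These counts therefore describe pre-HE and test nothing.

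The promoters of Hey2, Fbn1 and Htra1, chosen as a Notch target and 2 matrix genes of the peak set, are shown with the letters of the motif bound by RBPJ, the DNA-binding partner of Notch (GTGGGAA), and of the GC box bound by SP factors (GGGCGG) in capitals, each searched on both strands. They run from 250 bases before to 50 after the start of each gene in RefSeq, build GRCm38.p6.
Hey2 promoter, chr10:30842734-30843033, minus strand: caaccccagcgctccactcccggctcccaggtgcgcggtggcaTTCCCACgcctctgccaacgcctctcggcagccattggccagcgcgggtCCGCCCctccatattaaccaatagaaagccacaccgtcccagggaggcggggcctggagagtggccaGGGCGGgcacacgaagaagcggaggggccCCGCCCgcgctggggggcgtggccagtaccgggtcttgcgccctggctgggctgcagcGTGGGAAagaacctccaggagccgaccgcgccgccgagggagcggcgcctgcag
Fbn1 promoter, chr2:125506389-125506688, minus strand: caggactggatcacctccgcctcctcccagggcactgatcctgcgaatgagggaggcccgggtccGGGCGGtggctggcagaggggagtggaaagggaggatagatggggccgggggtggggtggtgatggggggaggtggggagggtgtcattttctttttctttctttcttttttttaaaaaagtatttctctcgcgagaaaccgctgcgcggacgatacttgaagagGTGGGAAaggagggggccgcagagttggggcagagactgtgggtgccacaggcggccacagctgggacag
Htra1 promoter, chr7:130935953-130936252, plus strand: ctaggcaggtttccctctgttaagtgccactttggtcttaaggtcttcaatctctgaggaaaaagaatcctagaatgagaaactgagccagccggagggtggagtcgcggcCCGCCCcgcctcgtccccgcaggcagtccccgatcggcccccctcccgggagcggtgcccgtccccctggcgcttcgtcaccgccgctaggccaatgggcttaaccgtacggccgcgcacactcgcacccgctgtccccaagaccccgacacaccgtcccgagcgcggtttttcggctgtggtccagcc
Hey2 holds 2 RBPJ motifs and 3 GC boxes, Fbn1 holds 1 of each, and Htra1 holds 1 GC box, none of which overlap. Fbn1 was chosen after its values were seen. Of the 56 peak genes, 39 had a promoter in the table, and 7 of these (17.9%) held the RBPJ motif, against 6.45% of 4726 promoters of genes with at least 50 pre-HE UMIs and 7.25% of 27025 promoters overall. The GC box was in 74.4% of the peak gene promoters, in 74.5% of promoters of genes with at least 50 pre-HE UMIs and in 38.2% overall. A match is a run of letters and shows no binding.

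Compared with conflux AE, the class before it, pre-HE had pan-endothelial and arterial sums at like levels, while single genes, arterial ones among them, differed. Among 5708 genes with at least 50 UMIs in the comparison, 84 (1.47%) were at least 2-fold higher in pre-HE in both libraries and 77 (1.35%) at least 2-fold lower. Scaling by TMM factors in place of total UMIs moved the median of all genes by -0.12 on the log2 scale in SP3KO, so that ratios of that size have no fixed sign. Pan-endothelial genes summed to 8001 CPM in SP3KO pre-HE and 7761 CPM in WT pre-HE, with log2 ratios to conflux AE of 0.05 in SP3KO and 0.01 in WT. The arterial list had ratios of 0.08 in SP3KO and -0.02 in WT, but part of it entered the arterial score by which the authors named the branch. Behind that sum, 6 of 23 measured arterial genes, Hey2, Htra1, Edn1, Ltbp4, Bmx and Jag1, were at least 2-fold higher in both libraries, and 1, Cxcr4, at least 2-fold lower. Jag1, a Notch ligand, had log2 ratios of 1.44 in SP3KO and 1.41 in WT, Bmx, a kinase of arterial endothelium, of 1.63 in SP3KO and 1.40 in WT, and Cxcr4, a chemokine receptor, of -1.89 in SP3KO and -1.32 in WT. The highest ratio belonged to Pde3a, a phosphodiesterase that degrades cyclic AMP, with 101 UMIs in SP3KO and 208 in WT pre-HE, against 0 UMIs in SP3KO and 2 in WT conflux AE. The log2 ratio was at least 5.81 in SP3KO, taken against a floor of 3 UMIs in conflux AE, and 7.17 (5.30 to 10.23) in WT. Nkx2-3, a homeodomain factor of vessels in gut and spleen, stood at 113 CPM in SP3KO pre-HE and 202 CPM in WT pre-HE, against 2.70 CPM in SP3KO and 9.39 CPM in WT conflux AE. Isl1 (ENSMUSG00000042258, chr13:116298270-116309688), a LIM homeodomain factor of cardiac progenitors, stood at 178 CPM in SP3KO pre-HE and 63.1 CPM in WT pre-HE, against 15.5 CPM in SP3KO and 5.63 CPM in WT conflux AE. Foxc2, a forkhead factor of arteries and lymphatics, stood at 75.2 CPM in SP3KO pre-HE and 65.1 CPM in WT pre-HE, against 5.39 CPM in SP3KO and 8.92 CPM in WT conflux AE. Ctsh, Synpo and Pdlim1 also belonged to the 10 highest. Fn1, fibronectin, was the matrix gene with the largest sum among those past 2-fold, at 1692 CPM in SP3KO pre-HE and 1309.6 CPM in WT pre-HE, against 728 CPM in SP3KO and 511 CPM in WT conflux AE.

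The genes lower in pre-HE than in conflux AE included Gja1, Slc2a1, Lef1 and Ccnd1. Of 15 measured junction genes 1, Gja1, was at least 2-fold lower and 1, Ocln, a protein of tight junctions, at least 2-fold higher, and their sum had log2 ratios of 0.03 in SP3KO and 0.03 in WT. Gja1, the gap junction protein connexin 43, stood at 52.7 CPM in SP3KO pre-HE and 39.0 CPM in WT pre-HE, against 311 CPM in SP3KO and 311 CPM in WT conflux AE. Gja5, the arterial connexin 40, lay on the other side without reaching 2-fold, at 572 CPM in SP3KO pre-HE and 618 CPM in WT pre-HE, against 356 CPM in SP3KO and 377 CPM in WT conflux AE. Slc2a1, the glucose transporter GLUT1, stood at 254 CPM in SP3KO pre-HE and 101 CPM in WT pre-HE, against 1072 CPM in SP3KO and 688 CPM in WT conflux AE. The list of Wnt targets, which Slc2a1 dominates, had log2 ratios to conflux AE of -1.95 in SP3KO and -2.28 in WT, and its 3 measured members, Lef1, Ccnd1 and Slc2a1, were each at least 2-fold lower in both libraries, against 1.35% of all genes. Ccnd1, cyclin D1, had ratios of -1.60 (-2.20 to -1.05) in SP3KO and -1.19 (-1.61 to -0.79) in WT. Glul, glutamine synthetase, Car2, carbonic anhydrase 2, and Col15a1, a collagen near basement membranes, were among the 10 lowest. Glycolysis genes summed to log2 ratios of -0.69 in SP3KO and -0.59 in WT, with Slc2a1 the member past 2-fold of 12 measured.

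Compared with HE, the class after it, pre-HE differed in more genes. Among 4976 genes, 314 (6.31%) were at least 2-fold higher in pre-HE in both libraries and 123 (2.47%) at least 2-fold lower. HE held 40 SP3KO cells with a median of 21366 UMIs and 59 WT cells with a median of 17656 UMIs, above the depth of pre-HE. Of 21 measured arterial genes 17 were past 2-fold higher in pre-HE, as were 11 of 13 matrix genes, 9 of 14 pan-endothelial genes and 7 of 12 genes of BMP and TGF-beta signalling. None of these lists had a member at least 2-fold lower. The matrix sum gave log2 ratios of 1.73 in SP3KO and 1.40 in WT, and the arterial sum 2.12 in SP3KO and 1.63 in WT. Ltbp4, which tethers latent TGF-beta to the matrix, stood at 137 CPM in SP3KO pre-HE and 111 CPM in WT pre-HE, against 6.70 CPM in SP3KO and 7.11 CPM in WT HE. Cav1, the scaffold of caveolae, stood at 171 CPM in SP3KO pre-HE and 147 CPM in WT pre-HE, against 14.5 CPM in SP3KO and 14.2 CPM in WT HE. Tmem100, a target of endothelial BMP signalling, stood at 509 CPM in SP3KO pre-HE and 397 CPM in WT pre-HE, against 63.6 CPM in SP3KO and 55.1 CPM in WT HE. Cd40, Nfia, Mall, Hmcn1 and Mcam were also among the 10 highest, with Htra1 and Hey2.

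Of 16 hematopoietic factors measured against HE, 6 were at least 2-fold lower in pre-HE in both libraries (all genes, 2.47%), none was at least 2-fold higher, and the other 10 did not pass in either direction. The 6 were Runx1, Gfi1, Spi1, Myb, Ikzf2 and Hlf. Runx1 stood at 2.24 CPM in SP3KO pre-HE and 3.90 CPM in WT pre-HE. It had 2 UMIs in SP3KO and 6 in WT pre-HE, against 217 UMIs in SP3KO and 400 in WT HE. Its pre-HE UMIs lay in 2 SP3KO and 4 WT cells. With each cell thinned at random to 5000 UMIs, Runx1 was found in 1 of 74 SP3KO pre-HE cells and 0 of 102 WT pre-HE cells, the second of which allows up to 2.94% of cells with a Runx1 UMI at that depth and sets no limit on cells that express the gene. Unthinned, cells with Runx1 made up 2.17% (0.264% to 7.63%) of SP3KO and 2.94% (0.807% to 7.36%) of WT pre-HE. Wnt-low venous endothelium, which should lack Runx1, had it in 0.680% of SP3KO and 1.10% of WT cells at the same depth. Gfi1, a repressor below RUNX1, had 1 UMI in SP3KO and 4 in WT pre-HE, and Myb, a factor of definitive blood progenitors, 1 UMI in SP3KO and 1 in WT pre-HE. Spi1, the myeloid factor PU.1, had 2 UMIs in SP3KO and 6 in WT pre-HE, against 96 UMIs in SP3KO and 105 in WT HE. Cebpb, another factor of myeloid cells, stood at 12.3 CPM in SP3KO pre-HE and 13.0 CPM in WT pre-HE, against 218 CPM in SP3KO and 219 CPM in WT HE. Some regulators, Ikzf2 of the 6 among them, were present in pre-HE above conflux AE or near the level of HE. Meis1, a homeobox partner of HOX proteins, lay above conflux AE by log2 ratios of 4.36 (2.70 to 6.70) in SP3KO and 3.79 (2.59 to 5.29) in WT, with ratios to HE of -1.24 in SP3KO and -0.94 in WT. Ikzf2, the zinc finger factor Helios, lay above conflux AE by 4.09 (2.77 to 5.77) in SP3KO and 2.40 (1.56 to 3.32) in WT, with ratios to HE of -1.83 in SP3KO and -2.24 in WT. Lyl1, a bHLH factor of blood progenitors, stood at 86.4 CPM in SP3KO pre-HE and 91.7 CPM in WT pre-HE, with ratios to HE of 0.03 (-0.45 to 0.50) in SP3KO and 0.05 (-0.33 to 0.43) in WT. Tubb3 and Elavl4, which neurons use, were also among the 10 lowest, together with Nupr1, Sfrp2 and Phgdh. The neural list summed to 11.2 CPM in SP3KO pre-HE and 11.1 CPM in WT pre-HE, against 365 CPM in SP3KO and 287 CPM in WT HE. Leaving out cells with markers of other types took pre-HE and HE together from 132 to 127 SP3KO cells and from 195 to 191 WT cells. Pre-HE alone went from 92 to 91 and stayed at 136, so most cells left out were HE. Then 116 genes were lower in pre-HE, 97 of them among the 123. Whether such cells carried the neural UMIs of HE was not tested.

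Few pre-HE cells carried many mitotic transcripts. After thinning to 5000 UMIs, which left out 18 SP3KO and 34 WT pre-HE cells that were shallower, at least 5 UMIs of 20 mitosis genes were found in 28.4% (18.5% to 40.1%) of SP3KO and 24.5% (16.5% to 34.0%) of WT pre-HE cells. Before thinning the shares were 28.3% in SP3KO and 27.2% in WT. The thinned shares were 23.6% of SP3KO and 16.4% of WT conflux AE, 44.4% of SP3KO and 47.3% of WT HE, and 76.2% of SP3KO and 81.7% of WT cells in Wnt-low venous endothelium. Pre-HE thus lay far below venous endothelium of the same library. Cdkn1c, the cell cycle inhibitor p57, stood at 959 CPM in SP3KO pre-HE and 763 CPM in WT pre-HE, with log2 ratios to conflux AE of -1.43 in SP3KO and -1.61 in WT.

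Among pre-HE cells, transcripts were spread unevenly. Cdh5 was found in 90 of 92 SP3KO and 136 of 136 WT cells, with a median per cell of 1569.8 CPM in SP3KO and 1622 CPM in WT pre-HE. Hey2 was found in 53 SP3KO and 87 WT cells, with no more than 8 UMIs in any cell. After thinning, Hey2 was found in 44.6% of SP3KO and 43.1% of WT pre-HE cells, against 0.340% of SP3KO and 1.24% of WT cells in Wnt-low venous endothelium. Unthinned, the shares in pre-HE were 57.6% in SP3KO and 64.0% in WT. Acta2 lay in fewer cells, 14 in SP3KO and 41 in WT, and the 3 cells with the most held 53.1% of its UMIs in SP3KO and 49.3% in WT. Its highest cell held 9 UMIs in SP3KO and 85 in WT, and 0 SP3KO and 10 WT cells reached 10 UMIs. Tagln, another gene of contractile cells, lay in 22 SP3KO and 51 WT cells, of which 7 SP3KO and 27 WT cells also held Acta2. Across cells, which share their library and differ in depth, Spearman's correlation of Acta2 with Tagln was 0.28 in 92 SP3KO cells and 0.46 in 136 WT cells. That of Acta2 with Hey2 was -0.02 in SP3KO and -0.11 in WT, and that of Pde3a with Adgrg6 was 0.29 in SP3KO and 0.48 in WT.

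**Figure D3:**
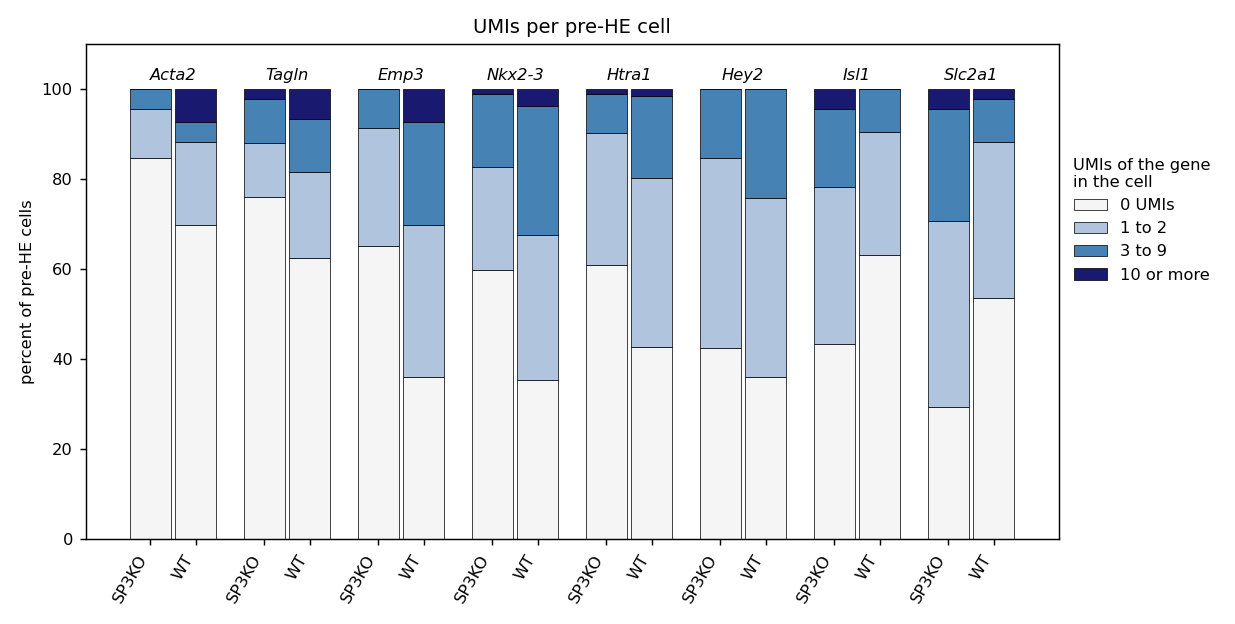
Percent of pre-HE cells with 0, 1 to 2, 3 to 9 or 10 or more UMIs of 8 genes (stacked bars from 0 to 100%), SP3KO left of WT for each gene. Acta2 reaches 10 UMIs in 0 of 92 SP3KO and 10 of 136 WT cells, and Isl1 in 4 SP3KO and 0 WT cells.

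The next question was whether pre-HE cells of SP3KO and WT embryos differed in number or transcripts. Of the cells from AE to IAC, pre-HE made up 7.04% of 1306 SP3KO and 9.38% of 1450 WT cells, a difference of -2.33 (-4.43 to -0.23) percentage points. Of conflux AE and pre-HE together it made up 38.8% in SP3KO and 42.0% in WT, a difference of -3.16 (-11.53 to 5.33) points, and of pre-HE and HE together 69.7% in SP3KO and 69.7% in WT, a difference of -0.05 (-10.74 to 10.33) points. Both of these intervals held 0. The first share also depends on the number of AE cells. In both libraries the deposited table holds many more AE cells and slightly more pre-HE cells than the study lists.

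Sp3 itself stood at 34.8 CPM in SP3KO pre-HE and 51.4 CPM in WT pre-HE, from 31 SP3KO and 79 WT UMIs. UMIs come from the 3' end of transcripts, and since the part of Sp3 that the allele removes was not stated, this level does not check the labels.

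Across the 5952 genes, with each library scaled by its own total, the log2 ratio of SP3KO over WT had a central 95% from -0.81 to 0.71, with 2959 genes above and 2993 below 0. Ratios of at least 2-fold were found for 39 higher genes (0.655%) and 74 lower genes (1.24%). With a minimum of 100 UMIs there were 7 higher and 22 lower genes of 3775 measured, so that most of them lay near the limit of counting. With cells thinned to 5000 UMIs there were 15 higher and 23 lower genes, of which 5 and 7 were among those above. Only 2871 genes were measured after thinning, and a gene no longer measured could not be called. The pre-HE markers did not move together. Hey2 had a ratio of 0.14 (-0.21 to 0.47), Cd44 of -0.34 (-0.82 to 0.11), Stmn2 of -0.68 (-0.84 to -0.53) and Acta2 of -2.69 (-3.26 to -2.17). The interval of Stmn2 also lay below 0 in 5 of the 8 other classes and above 0 in 1. Its highest pre-HE cell held 53 UMIs in SP3KO and 135 in WT. Acta2 had the lowest ratio of the 5952 genes, from 32 UMIs in 14 SP3KO cells against 357 UMIs in 41 WT cells. Without the 3 cells of each library that held the most its ratio was -2.81, with each cell weighted alike -2.05 and with thinned cells -2.51. After thinning, Acta2 was found in 12.2% (5.71% to 21.8%) of SP3KO and 23.5% (15.7% to 33.0%) of WT pre-HE cells. In HE Acta2 lay on the other side of 0, at 337 CPM in SP3KO and 247 CPM in WT HE, with a ratio of 0.45 (0.21 to 0.69). Of the markers of mature smooth muscle and pericytes, Myh11 had 1 UMI in SP3KO and 3 in WT pre-HE, Pdgfrb 0 in SP3KO and 1 in WT, and Des, Cspg4, Kcnj8, Myocd and Higd1b were at 0 in both. The list of 12 summed to 81.9 CPM in SP3KO pre-HE and 64.4 CPM in WT pre-HE, of which Notch3 and Smtn made up 69 of 73 UMIs in SP3KO and 92 of 99 in WT. The promoter of Acta2, shown because of this ratio, stands in lower case throughout, since it holds neither the GC box nor the RBPJ motif nor the strict form of the CArG box, the site of serum response factor. Near matches were not searched, and the sequence holds ccctatatgg and ccttgtttgg, each 1 base away from the strict form.
Acta2 promoter, chr19:34255324-34255623, minus strand: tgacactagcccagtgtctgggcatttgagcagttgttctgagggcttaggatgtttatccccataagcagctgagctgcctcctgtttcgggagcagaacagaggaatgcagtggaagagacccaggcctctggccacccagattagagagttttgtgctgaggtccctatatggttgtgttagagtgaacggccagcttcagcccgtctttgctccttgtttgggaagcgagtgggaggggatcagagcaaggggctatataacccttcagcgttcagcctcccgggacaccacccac
Each of the 10 measured contractile genes had a ratio below 0, with a median of -0.37 against -0.00203 over all genes, and Acta2 was the member past 2-fold. Tagln had a ratio of -0.92 (-1.26 to -0.59) and Cald1, an actin-binding regulator of contraction, one of -0.37 (-0.53 to -0.22). The list summed to 2332 CPM in SP3KO pre-HE and 3194 CPM in WT pre-HE (log2 ratio -0.45, -0.53 to -0.38). The strict form of the CArG box was held by 4 of 15 contractile genes with a promoter entry (26.7%), against 1.59% of genes with at least 50 pre-HE UMIs.

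**Figure D4:**
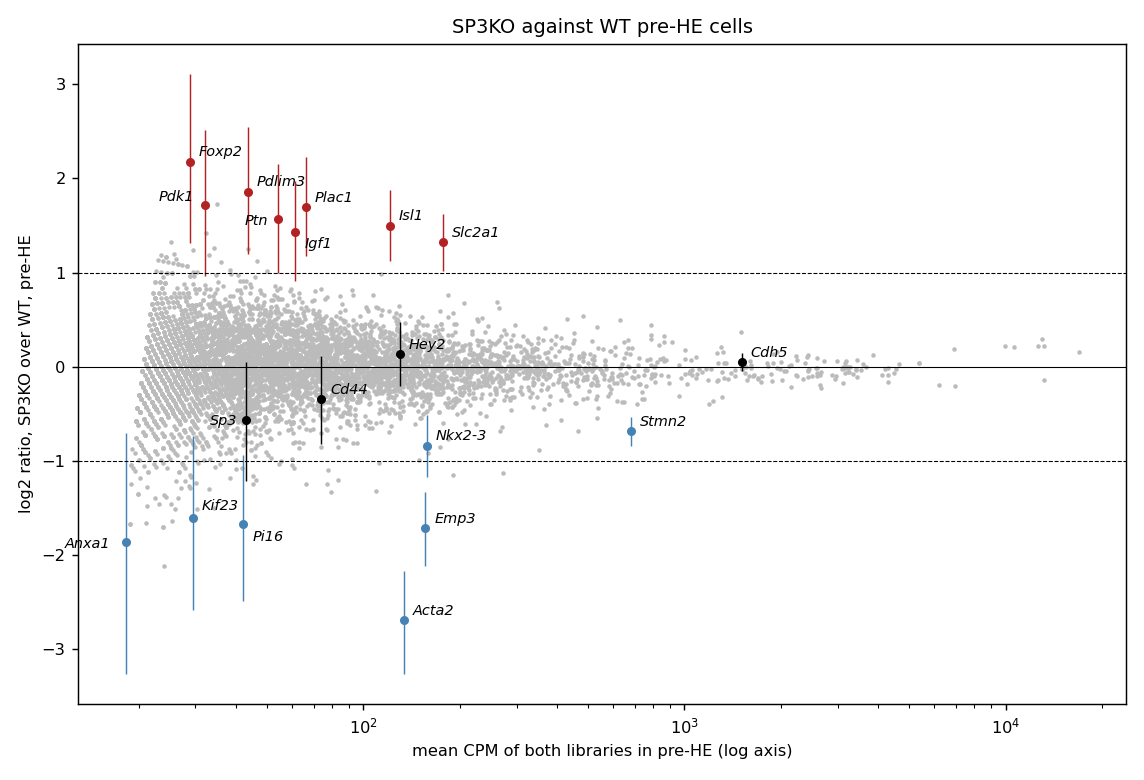
Log2 ratio of SP3KO over WT (vertical) against the mean CPM of both libraries in pre-HE (horizontal, log axis) for the 5952 genes with at least 50 UMIs in grey, with labelled genes and their 95% counting intervals (red higher and blue lower in SP3KO, black for reference) and dashed lines at 2-fold. Acta2 lies at -2.69, Emp3 at -1.71, Isl1 at 1.50 and Slc2a1 at 1.32.

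Of the 12 genes with the lowest ratios, Emp3, a small membrane protein, had the most UMIs, 65 in 32 SP3KO cells and 368 in 87 WT cells (log2 ratio -1.71, -2.12 to -1.33). The highest 3 cells held 21.5% of these UMIs in SP3KO and 20.4% in WT, and 0 SP3KO and 10 WT cells reached 10 UMIs. The interval of Emp3 lay below 0 in 5 of the 8 other classes. Emp1, of the same family, had 8 UMIs in SP3KO and 44 in WT pre-HE. Pi16, a secreted protein of endothelium under steady flow, had 18 UMIs in SP3KO and 99 in WT pre-HE (-1.67, -2.49 to -0.94). Anxa1, an annexin that limits inflammation, had 7 UMIs in SP3KO and 44 in WT pre-HE, and Gimap4, a GTPase of lymphocytes and endothelium, 11 UMIs in SP3KO and 59 in WT pre-HE. Plpp2, a lipid phosphatase, had 10 UMIs in SP3KO and 56 in WT pre-HE, with intervals below 0 in all 8 other classes, and its ratio in pre-HE was -1.70, or -0.64 with thinned cells. Kif23, a kinesin of cell division, had 13 UMIs in 7 SP3KO cells and 68 in 22 WT cells. Enho, Tmem123, Dnm3 and 2200002D01Rik completed the set, none with more than 60 UMIs in WT pre-HE. Nkx2-3, which set pre-HE apart from conflux AE, had a ratio short of 2-fold, -0.84 (-1.17 to -0.51) in pre-HE and -0.88 (-1.35 to -0.42) in HE. After thinning, Nkx2-3 was found in 28.4% (18.5% to 40.1%) of SP3KO and 53.9% (43.8% to 63.8%) of WT pre-HE cells.

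The genes that peaked in pre-HE lay on both sides of 0 between SP3KO and WT. Each had to pass 2-fold over every other class in both libraries. A gene that kept this margin in only 1 library could not enter, so the split does not test whether pre-HE genes shifted. Of the 56, 26 had a ratio above 0 and 30 below 0, with a median of -0.0593, and 1 was at least 2-fold higher (Pdlim3) and 3 at least 2-fold lower (Pi16, Fbln2 and Ass1). Htra1 had a ratio of -0.59 (-0.98 to -0.21), Dhh of -0.86 (-1.52 to -0.25), Fbn1 of 0.12 (-0.12 to 0.36), Cavin2 of 0.21 (-0.02 to 0.43) and Adgrg6 of 0.09 (-0.28 to 0.45). Fbln2 had 15 UMIs in SP3KO and 56 in WT pre-HE (-1.11, -2.04 to -0.27).

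Of 11 measured flow-responsive genes 10 lay below 0 and 3 were at least 2-fold lower, with a median of -0.51, against 1.24% and a median of -0.00203 over all genes. The sum had an interval below 0 in 6 of the 8 other classes. Klf2, the factor by which endothelium answers laminar flow, stood at 332 CPM in SP3KO pre-HE and 491 CPM in WT pre-HE (-0.56, -0.76 to -0.37). Klf4, its relative, stood at 49.4 CPM in SP3KO pre-HE and 105 CPM in WT pre-HE (-1.09, -1.61 to -0.61), and Ass1, an enzyme of arginine synthesis, had 35 UMIs in SP3KO and 124 in WT pre-HE (-1.04, -1.62 to -0.49). Nos3, the endothelial nitric oxide synthase, had a ratio of -0.51 (-0.94 to -0.10), and Cav1 was the member above 0, at 0.21 (-0.09 to 0.52). The list summed to 1388 CPM in SP3KO pre-HE and 1907 CPM in WT pre-HE (-0.46, -0.56 to -0.36), with a ratio of -0.42 for each cell weighted alike and -0.39 for thinned cells.

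Of the 12 genes with the highest ratios, Slc2a1 and Isl1 had the most UMIs. Isl1 had 159 UMIs in 52 SP3KO cells and 97 in 50 WT cells (log2 ratio 1.50, 1.13 to 1.88). After thinning, Isl1 was found in 40.5% (29.3% to 52.6%) of SP3KO and 23.5% (15.7% to 33.0%) of WT pre-HE cells, and in 1.53% of SP3KO and 0.826% of WT cells in Wnt-low venous endothelium. Its interval lay above 0 in 4 of the 8 other classes, with ratios of 1.46 (0.39 to 2.60) in conflux AE and -0.50 (-1.18 to 0.16) in HE. Slc2a1 had 226 UMIs in 65 SP3KO cells and 156 in 63 WT cells (1.32, 1.02 to 1.62), with intervals above 0 in 7 of the 8 other classes. It supplied 226 of 296 SP3KO and 156 of 265 WT UMIs of the Wnt target list, whose sum had a ratio of 0.95 (0.70 to 1.19), while Ccnd1 lay at -0.26 (-0.91 to 0.37). Pdk1, which restrains entry of pyruvate into mitochondria, had 44 UMIs in SP3KO and 23 in WT pre-HE, with intervals above 0 in 6 of the 8 other classes. Pdk1 lies at chr2:71873215-71903858, close to Sp3 (chr2:72936430-72980446) on the same chromosome. Whether that position bears on its ratio was not tested. Of 9 measured genes of the hypoxia response 7 lay above 0 and 3 were at least 2-fold higher, with a median of 0.39, against 0.655% and a median of -0.00203 over all genes. These were Slc2a1, Pdk1 and Ankrd37, the last with 32 UMIs in SP3KO and 25 in WT pre-HE. The hypoxia sum had a ratio of 0.39 (0.27 to 0.52) in pre-HE and 0.45 (0.38 to 0.53) in conflux AE, and its interval lay above 0 in 7 of the 8 other classes. Slc2a1 belongs to this list as well as to the Wnt target list. It supplied 226 of 962 SP3KO and 156 of 1263 WT UMIs of the hypoxia sum in pre-HE.

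The highest ratio was that of Foxp2, a forkhead repressor, with 42 UMIs in 26 SP3KO cells and 16 in 14 WT cells (2.18, 1.32 to 3.11). Pdlim3, one of the peak genes, had 61 UMIs in 15 SP3KO cells and 29 in 11 WT cells (1.86, 1.20 to 2.55), and its highest 3 cells held 50.8% of them in SP3KO and 51.7% in WT. Isl1 and Pdlim3 lay together in 13 SP3KO and 6 WT pre-HE cells, with a Spearman correlation across cells of 0.44 in SP3KO and 0.09 in WT. Nfatc1, a factor of endocardium and valves, had 48 UMIs in SP3KO and 25 in WT pre-HE (1.73, 1.00 to 2.49), and its interval held 0 in each of the 8 other classes. Ptn, the growth factor pleiotrophin, had 72 UMIs in SP3KO and 42 in WT pre-HE. Igf1, insulin-like growth factor 1, had 80 UMIs in SP3KO and 51 in WT pre-HE (1.44, 0.91 to 1.97), whereas its interval lay below 0 in 4 of the 8 other classes and above 0 in 1. Plac1, Blm, Polr1a and Tshz2 completed the set, none with more than 48 UMIs in WT pre-HE.

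Pan-endothelial and arterial sums of SP3KO and WT pre-HE lay close together, with a sign that changed with the setting, while the sums of Notch targets and of venous genes lay above 0. None of 16 pan-endothelial genes was past 2-fold, with a median ratio of 0.05, and their sum had a ratio of 0.04 (0.00 to 0.09), or -0.01 under TMM scaling, -0.07 with each cell weighted alike and -0.02 with thinned cells. The arterial sum had a ratio of 0.10 (0.05 to 0.15), or -0.06 with each cell weighted alike. Of 7 measured Notch targets 6 lay above 0 and 1 was at least 2-fold higher, with a median of 0.56, against 0.655% and a median of -0.00203 over all genes. Their sum stood at 872 CPM in SP3KO pre-HE and 640.2 CPM in WT pre-HE (0.45, 0.31 to 0.58), with a ratio of 0.35 for each cell weighted alike and 0.31 for thinned cells. Hey1, a relative of Hey2, stood at 208 CPM in SP3KO pre-HE and 138 CPM in WT pre-HE (0.59, 0.30 to 0.88), and Notch3, a receptor and target of Notch that pericytes also use, at 46.0 CPM in SP3KO pre-HE and 20.2 CPM in WT pre-HE (1.19, 0.48 to 1.91). The venous list, of which 4 members were measured, 2 above 0 and none past 2-fold, summed to 1240.0 CPM in SP3KO pre-HE and 925 CPM in WT pre-HE (0.42, 0.31 to 0.54), with ratios of 0.37 to 0.42 over its alternatives. Emcn, the endothelial sialomucin endomucin, made up 806 of 1105 of its UMIs in SP3KO and 1024 of 1422 in WT pre-HE, and Nr2f2, the factor that sets venous identity, had 17 UMIs in SP3KO and 12 in WT pre-HE. The interval of the venous sum lay above 0 in 2 and below 0 in 5 of the 8 other classes. Of 11 measured hematopoietic factors 9 lay above 0 and none was past 2-fold, with a median of 0.31. Of all 5952 genes, 2959 lay above 0, 0.655% were at least 2-fold higher and 1.24% at least 2-fold lower. Gata2, a factor of HE and stem cells, stood at 84.2 CPM in SP3KO pre-HE and 57.3 CPM in WT pre-HE (0.56, 0.09 to 1.02).

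**Figure D5:**
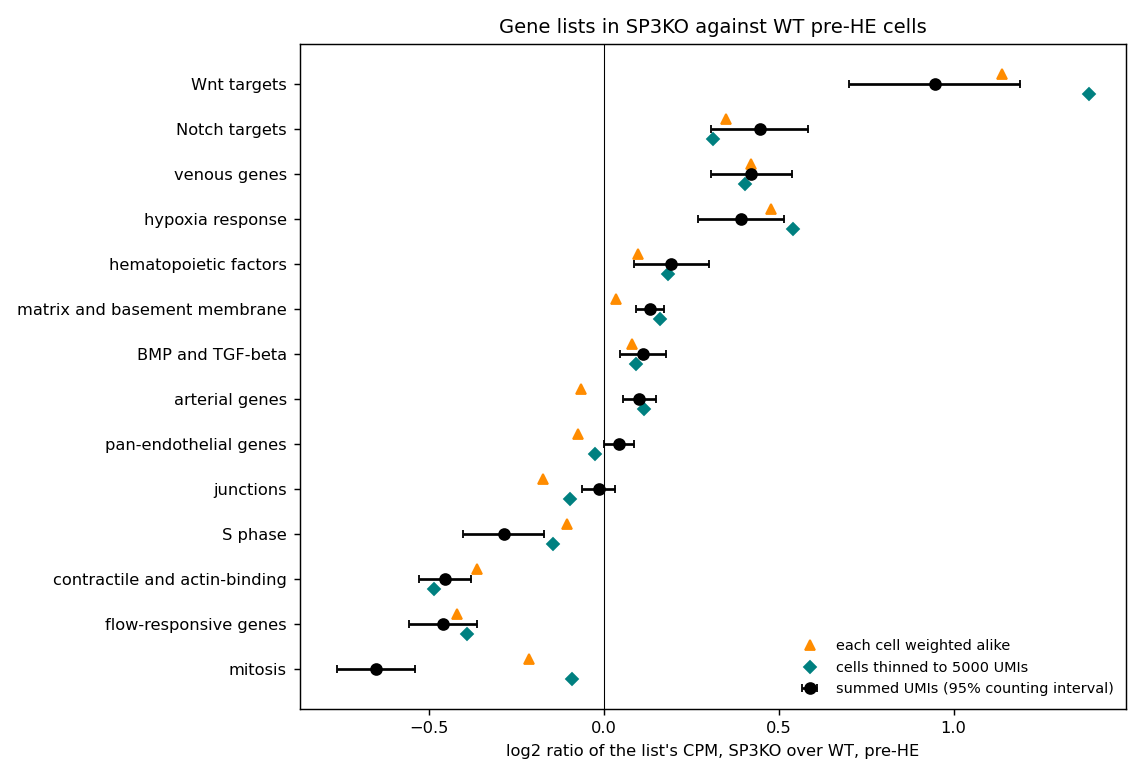
Log2 ratio of SP3KO over WT in pre-HE for the summed CPM of 14 gene lists, with circles and 95% counting intervals for summed UMIs, triangles for each cell weighted alike and diamonds for cells thinned to 5000 UMIs. Contractile and flow-responsive genes lie below 0 in each setting, at -0.45 and -0.46 for summed UMIs, while mitosis genes lie at -0.65 for summed UMIs and -0.09 for thinned cells.

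All 20 mitosis genes had ratios below 0, against 2993 of 5952 genes measured. Of the 20, 3, Kif23, Plk1 and Hmmr, were at least 2-fold lower, against 1.24% of all genes. The mitosis sum stood at 1027 CPM in SP3KO pre-HE and 1612 CPM in WT pre-HE (-0.65, -0.76 to -0.54). However, its ratio was -0.21 with each cell weighted alike and -0.09 with thinned cells, and the thinned shares of cells with at least 5 mitosis UMIs had overlapping intervals. The interval of the sum lay below 0 in 6 of the 8 other classes and above 0 in 1, conflux AE, at 0.42 (0.31 to 0.52). Without the 3 cells of each library with the most mitosis UMIs the ratio was -0.58. Thinning also left out the 18 SP3KO and 34 WT cells that were shallower. S phase genes had a sum at -0.29 (-0.40 to -0.17), or -0.11 with each cell weighted alike and -0.14 with thinned cells.

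Signs of other cell types and of RNA content are given beside these ratios, and their part in the results was not tested. Mesenchymal genes summed to 35.9 CPM in SP3KO pre-HE and 33.8 CPM in WT pre-HE, with Col1a1, Postn, Tbx18 and Tcf21 of 12 members at 0, erythroid genes to 67.3 CPM in SP3KO pre-HE and 47.5 CPM in WT pre-HE and germ cell genes to 53.9 CPM in SP3KO pre-HE and 56.6 CPM in WT pre-HE. Of erythroid UMIs, Hbb-y, an embryonic globin, made up 46 of 60 in SP3KO and 48 of 73 in WT. Macrophage genes had 1 UMI in SP3KO and 8 in WT pre-HE, with 9 of 12 members, C1qa and Csf1r among them, at 0 in both. Epithelial genes summed to 20.2 CPM in SP3KO pre-HE and 48.1 CPM in WT pre-HE, of which Krt18, a keratin, made up 14 of 18 UMIs in SP3KO and 69 of 74 in WT. Endocardial and cardiac genes summed to 453 CPM in SP3KO pre-HE and 358 CPM in WT pre-HE (0.34, 0.15 to 0.53), or a ratio of 0.08 with each cell weighted alike. Npr3, a natriuretic peptide receptor of endocardium, made up 322 of 404 UMIs in SP3KO and 492 of 551 in WT. Of the cardiac transcription factors on the list, Gata4 had 15 UMIs in 6 SP3KO cells and Tbx20 8 in 4, each of which also held Isl1, against 0 UMIs of either gene in WT pre-HE. Nfatc1 lay with Isl1 in 18 of its 23 SP3KO and 11 of its 21 WT cells. Nkx2-5, another of these factors, and Myh7, a myosin of heart muscle, were at 0 in both libraries. Tnnt2, cardiac troponin T, had 4 UMIs in SP3KO and 28 in WT pre-HE. Other muscle genes of the list had few UMIs, with Actc1 at 4 in SP3KO and 5 in WT, Myl7 at 2 and 1 and Myh6 at 1 and 0. All 13 genes of the mitochondrial genome had ratios above 0, and their sum stood at 85620 CPM in SP3KO pre-HE and 75089 CPM in WT pre-HE (0.19, 0.18 to 0.20). That ratio moved past its counting interval under each alternative, to 0.14 under TMM, 0.15 without the 3 cells with the most, 0.17 with thinned cells and 0.07 with each cell weighted alike. Cells with Xist made up 45.7% of SP3KO and 38.2% of WT pre-HE, and cells with a Y-linked transcript 45.7% of SP3KO and 40.4% of WT pre-HE, so that both pools held embryos of both sexes.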

How the data were processed

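Single endothelial cells of SP3KO and WT dorsal aorta were captured with the Chromium 3' kit, in 1 library per genotype. The deposited counts are raw UMIs per gene and cell, which the authors made with Cell Ranger (version not given in the sources used here) against mm10 (GRCm38). The authors removed barcodes under 1000 UMIs or 1000 genes and contaminating cell types. Per the methods, a cell took the class held by most of the 3 reference cells closest to it on the atlas, a tie being settled at random, and the authors scored arterial and venous genes to tell AE from venous endothelium (VE). The deposited mitochondrial fraction is the share of a cell's UMIs from mitochondrial genes, as the authors computed it. The deposited size factor, a ratio of cell totals, was not used.

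UMIs were summed per class and library and scaled by their total with Python 3.11.15, numpy 2.4.6, scipy 1.17.1 and pandas 2.3.3. Ratios between sums are log2 values with exact conditional 95% intervals, shares have Clopper-Pearson intervals and differences of shares Newcombe intervals. With 1 library per genotype no test was run. UMIs are molecules of few pooled embryos, so intervals and floors cover counting error only. A gene was compared when it had at least 50 UMIs, and called at 2-fold. In the class comparisons it had to be past 2-fold in both libraries. Against a sum of 0, a floor of 3 UMIs per library was used. For shares of cells, each cell was thinned at random to 5000 UMIs and shallower cells were left out. No doublet caller was run, and 1 SP3KO and 7 WT pre-HE cells with over 3 times the median UMIs of their class were left out as an alternative. Matrix sums differed from the deposited totals by 0 to 197 UMIs per cell. Of 27514 rows, 12 gene names stood on more than 1 ID.

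Genes were named as follows: the 4 class markers, Sp3 and Runx1, the 12 peak genes with the widest margin, the 10 highest and 10 lowest against conflux AE and against HE, the 12 highest and 12 lowest SP3KO over WT ratios in at least 10 cells, and for each of 34 gene lists the 3 members with the most UMIs and the highest and lowest ratio. Other genes named were chosen after their values were seen. The members and lists were chosen with earlier results of these data known. A list member counts as measured with at least 50 UMIs in the comparison. Alternatives were TMM factors (edgeR 4.0.16) and DESeq2 1.42.0 size factors on the sums in R 4.3.3, each cell weighted alike, minimums of 20 and 100 UMIs, thinning, and leaving out cells by depth, mitochondrial share or markers of other types. The scripts were tested on simulated data. Gene positions and promoters are from RefSeq, GRCm38.p6.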

Additional observations from a re-analysis of the deposited data

How the results depend on the processing

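The counts of genes past 2-fold depended most on the minimum of UMIs, which also set how many genes were measured. For SP3KO against WT these were 8466 genes at 20 UMIs, 5952 at 50 and 3775 at 100. With at least 20 UMIs, SP3KO against WT pre-HE gave 185 higher and 233 lower genes, pre-HE against conflux AE 190 higher and 132 lower, pre-HE against HE 517 higher and 235 lower, and 91 peak genes. With at least 100 UMIs these were 7 higher and 22 lower for SP3KO against WT, 47 lower against conflux AE, 188 higher and 60 lower against HE, and 32 peak genes. With each cell weighted alike 64 genes were higher in SP3KO, 28 of them among the 39. Thinning cells to 5000 UMIs left 2871 genes measured, of which 15 were higher and 23 lower. Without cells over 3 times the median there were 27 higher and 51 lower genes, of which 24 and 38 were among the 39 and the 74. The other alternatives left each count within 1.5 times its value, but the genes behind a count could change. A mitochondrial share of at most 10% kept 59 SP3KO and 91 WT pre-HE cells and gave 28 higher and 86 lower genes in SP3KO. Of these, 16 and 48 were among the 39 and the 74. Weighting each cell alike gave 88 lower genes, 43 of them among the 74. Of the named genes, Nupr1 changed the sign of its SP3KO over WT ratio to 0.75 without the 3 cells with the most UMIs and to 1.05 with thinned cells, and Sfrp2 to 0.46 with thinned cells. Both were at 0 UMIs in SP3KO pre-HE, so that these fitted ratios are no bound. Of 170 ratios of named genes, 167 stayed within their interval under TMM and 137 with thinned cells. Of 33 list sums, 28 did so under TMM, 16 with each cell weighted alike and 23 with thinned cells. The difference in the share of pre-HE cells from AE to IAC ran from -2.67 to -2.19 points over its filters on cells. Of all cells it ran from -0.87 to -0.66 (-1.38 to 0.06, without cells over 3 times the median), of conflux AE and pre-HE from -3.55 to -3.16, and of pre-HE and HE from -3.08 to 1.15, so that the sign of the last turned with the filter. No paired analysis was possible because each genotype had 1 library. With 92 and 136 cells, a gene of 50 UMIs has a wide counting interval, and the spread between embryos cannot be estimated.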
